A study of Mus musculus with 6 samples.

Results

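The genes described are 8 MAP3 kinases other than Map3k4 (Map3k1, Map3k2, Map3k3, Map3k5, Map3k7, Map3k8, Map3k11 and Map3k14) and the TAK1 partners Tab1 and Tab2. All non-control probes that carry these 10 gene names in the array files were taken, which gave 16 probes in 25 spots, of 55681 probes and 34821 gene names on the array. RNA came from CD71highTer119+ erythroblasts sorted from the bone marrow of 3 P38α+/− and 3 P38α−/− mice on day 4 after a single injection of the haemolytic agent phenylhydrazine (PHZ) at 100 mg per kg. The genotypes are Mx1-Cre/P38α fl/+ and Mx1-Cre/P38α fl/fl on a C57Bl/6 background, so the controls also carry Mx1-Cre and have lost 1 allele of P38α. Mice of both genotypes had received 3 injections of PolyIC (300 µg each) at 6 to 8 weeks of age, followed by 6 weeks of rest. Mx1-Cre is an interferon-inducible Cre that PolyIC switches on, and it acts in blood cells in general and in other tissues, not in erythroblasts alone. From each mouse 10 ng of RNA was hybridised to 1 single-colour Agilent array.

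MAP3 kinases form the top tier of the MAP kinase cascades. Cytokine receptors, Toll-like receptors, oxidative stress or small GTPases switch them on, and they phosphorylate MAP2 kinases, which in turn phosphorylate P38, JNK or ERK. TAK1, the product of Map3k7, works in a complex with the adaptors TAB1 and TAB2, where TAB1 activates the kinase and TAB2 binds ubiquitin chains that TRAF6 and similar ligases make. TAB1 can also bind P38α itself. MEKK1 to MEKK3 are encoded by Map3k1 to Map3k3, ASK1 by Map3k5, MLK3 by Map3k11, TPL2 by Map3k8 and NIK, the kinase of the non-canonical NF-κB pathway, by Map3k14. The comparison of the genotypes asks whether the upstream tier of the P38 pathway is transcribed differently in erythroblasts that lack P38α.

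The probes decide which part of each transcript was measured, so the first 30 bases of those the results rest on are printed 5′ to 3′ as the array files give them, with the position of the whole probe in mm9. The array files hold no exon or UTR annotation for them. For TAK1 and its partners a TAB adaptor has 1 probe each and Map3k7 has 3, of which 2 are named for transcript variant B and 1 for variant A.
Map3k7 probe 1 (variant B, chr4:32107645-32107704, plus strand): ctgagtctgttgccttcccatgcttttaag
Map3k7 probe 2 (variant A, chr4:32104023-32104082, plus strand): gtgcccaaactccaaagaatccatggcagt
Map3k7 probe 3 (variant B, chr4:32108103-32108162, plus strand): tgtgccttcctcaaaacctgttagtagaaa
Tab1 (chr15:79992039-79992098, plus strand): tcagctggtgcacaaggacatgggacaaag
Tab2 (chr10:7626005-7626064, minus strand): aaagctggaaaaaagaaagaaaacaagcag
The 2 Map3k1 probes overlap at 55 positions, and capitals mark the 25 bases that both of the printed stretches hold, so they are not independent readings of that transcript.
Map3k1 probe 1 (chr13:112536814-112536873, minus strand): taagaCTTCCAGGGCTTAAGGGCTAACTCC
Map3k1 probe 2 (chr13:112536809-112536868, minus strand): CTTCCAGGGCTTAAGGGCTAACTCCtatta
Map3k14 and Map3k3 are shown because their signals lay near the background of the arrays.
Map3k14 probe 1 (chr11:103081249-103081308, minus strand): gaaacagctgcttaggactcattgtagcat
Map3k14 probe 2 (chr11:103101069-103101128, minus strand): aacaatgtggcccatgcaactgaaggcaaa
Map3k3 (chr11:106015867-106015926, plus strand): caagggtatgaatagtgttacttcattcag

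Levels are log2 signals from which the 75th percentile of each array was subtracted. The percentile was taken over the 15150 probes that all 6 arrays detected, that is, read well above background. A level of 0 is that percentile, and levels of different probes cannot be set against each other. Each difference is P38α−/− minus P38α+/− on this scale. Only probes detected on all 3 arrays of 1 genotype or of both were tested, which left 18547 probes of 14025 genes, and 11 member probes of 8 genes. Map3k3 and Map3k8 were not tested. Of all probes, 53.1% were detected on P38α+/− replicate 1 and 28.5% on P38α−/− replicate 1, against 35.1% to 38.2% on the other 4 arrays, so these 2 arrays stand apart in detection. P38α−/− replicate 3 was scanned on a slide of its own. Mapk14, the gene of P38α, was not lower in the arrays labelled P38α−/− (mean levels 0.51 and 1.05, log2 fold change 0.54, adjusted p = 0.185 by limma), so the array does not show the deletion that the labels name, and whether the probes lie in the deleted stretch is not known here. The paper itself reports excision of the locus by genomic PCR and loss of the protein by immunoblotting in sorted P38α−/− erythroblasts after PolyIC. The median log2 fold change over all tested probes was −0.16, and changes are also given relative to it.

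No member gene was differentially expressed by limma with Benjamini-Hochberg adjustment at an adjusted p of at most 0.05 and a fold of at least 2. Of all tested genes, 29 passed (0.207%). At an unadjusted p of at most 0.05, which 20.0% of all tested genes reached, there were 3 of 8 member genes by their brightest probe, Map3k1, Map3k14 and Tab2, all with a lower mean in the arrays labelled P38α−/−. The methods' unpaired equal-variance test with the same adjustment called 0 members, and 2 genes of all those tested. Without overlap between the genotypes, 1 of the 8 genes lay higher, Tab1, and 4 lay lower, Map3k1, Map3k7, Map3k14 and Tab2. The same held for 7.42% of all tested genes in the higher direction and 19.9% in the lower direction. Map3k14 could be tested only because P38α+/− detected it, so its direction is no support in either count. The median log2 fold change of the 8 genes was −0.29, or −0.13 relative to the median probe. It includes Map3k2 and Map3k14, both tested only through P38α+/−. Over the 6 member genes detected on all arrays, the median was 0.058 relative to the median of the probes so detected. With another scaling of the arrays, the percentile over all probes, 2 members lay higher without overlap and 0 lower, and with centring on the E1A spike-in spots there were 0 in either direction. The share of all tested genes was not computed under these scalings, which moved the median of all tested probes to 0.32 and 0.21. These counts therefore do not set the members against the rest.

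**Figure D1:**
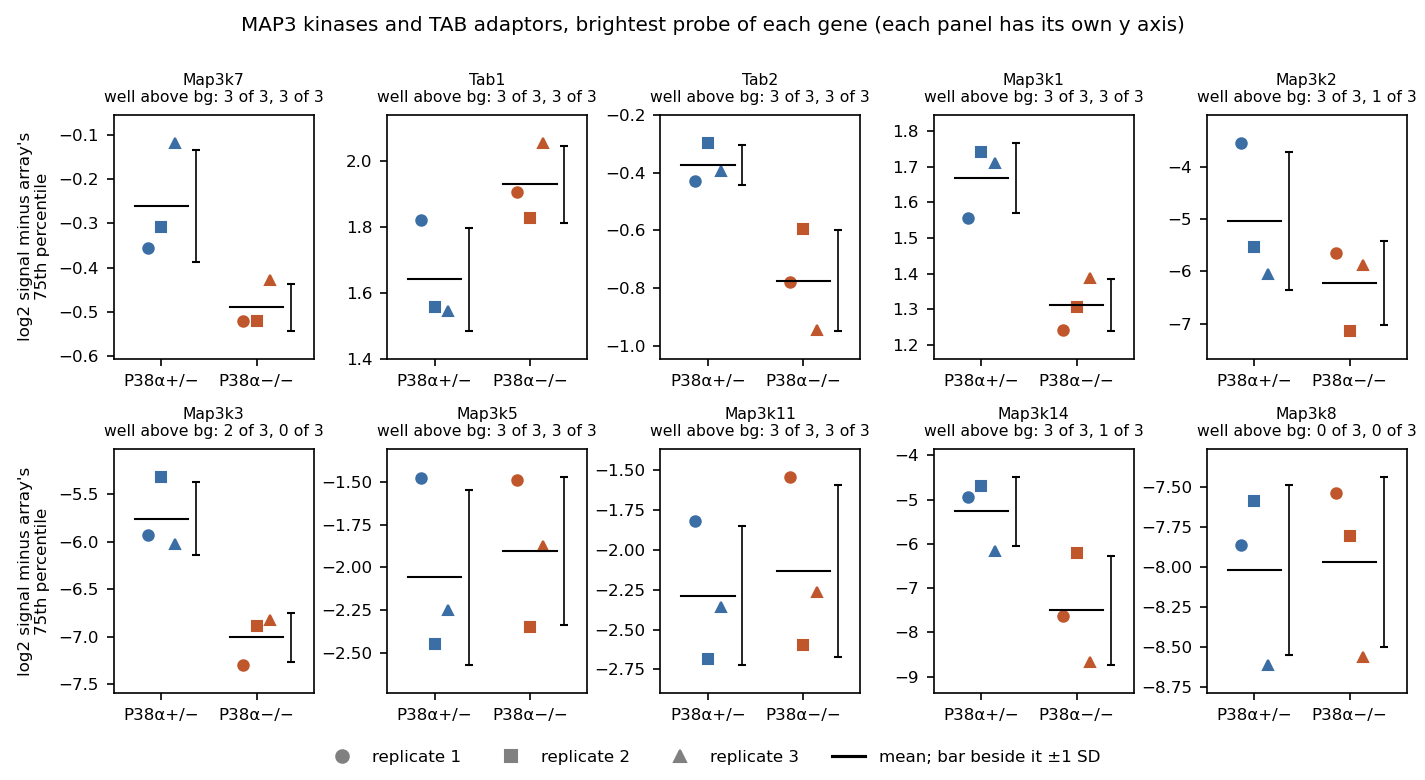
Level of the brightest probe of each member in every array (log2 signal minus the array's 75th percentile, y axis of its own in each panel), by labelled genotype. Points are arrays with the replicate number as the symbol, the line is the mean and the bar beside it ±1 SD (n = 3); Tab1 lies higher and Map3k7, Tab2, Map3k1 and Map3k14 lie lower without overlap in P38α−/−, as does Map3k3, which was well above background on 2 of 3 and 0 of 3 arrays.

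In the TAK1 complex, Tab1 and Tab2 differed in opposite directions on this scale. Tab1, the adaptor that activates TAK1, read 1.82, 1.56 and 1.54 in P38α+/− and 1.90, 1.83 and 2.05 in P38α−/−. All 3 P38α−/− arrays lay above all 3 P38α+/− arrays, the nearest pair being 1.82 and 1.83. The log2 fold change was 0.29 (standard error 0.16), or 0.45 relative to the median probe, and did not pass (adjusted p = 0.349 by limma). Tab2, the adaptor that binds ubiquitin chains, read −0.43, −0.30 and −0.39 in P38α+/− and −0.78, −0.60 and −0.95 in P38α−/−, again without overlap. The log2 fold change of Tab2 was −0.40, with a standard error of 0.16 and an adjusted p of 0.220 by limma. Tab3, a further adaptor of this complex outside the members, stood beside Tab2 with a log2 fold change of −0.36 (adjusted p = 0.234 by limma), without overlap. The direction of Tab1 held under every scaling tried, but its separation did not. Its genotypes overlapped under quantile normalization, E1A centring and the authors' table, where 0 members lay higher without overlap. The sign of Tab2 turned under the percentile over all probes (0.081) and that of Tab3 under 2 of 4 other scalings.

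Map3k7, the kinase of the complex, was read by 3 probes with a lower mean in P38α−/− by each. Probe 1 read −0.36, −0.31 and −0.12 in P38α+/− and −0.52, −0.52 and −0.43 in P38α−/−, which do not overlap. The log2 fold change was −0.23 (standard error 0.15), only −0.07 relative to the median probe (adjusted p = 0.412 by limma), and its sign turned under the percentile over all probes (0.25) and under E1A centring (0.14). Probe 2, of variant A, read −2.35, −2.01 and −1.86 in P38α+/− and −2.91, −2.45 and −2.54 in P38α−/−. These groups did not overlap either, and the log2 fold change of −0.56 had a standard error of 0.21 (adjusted p = 0.204 by limma, unadjusted p = 0.0338). Probe 3 was an outlier spot on P38α−/− replicate 1 and left out there, so that it was compared over 3 arrays and 2. It gave a log2 fold change of −0.30 with overlap (adjusted p = 0.506 by limma).

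A shift of a whole array cancels in the difference between 2 probes of that array, so the members of the complex were also set against each other within arrays, in 5 comparisons. Tab1 minus Map3k7 was 2.18, 1.86 and 1.66 in P38α+/− and 2.43, 2.35 and 2.48 in P38α−/−, higher by 0.52 without overlap (two-sided exact permutation p = 0.10, adjusted p = 0.167; no smaller p is possible with 3 arrays a genotype). Tab2 minus Tab1 was −2.25, −1.85 and −1.94 in P38α+/− and −2.68, −2.42 and −3.0 in P38α−/−. That difference changed by −0.69 in P38α−/−, again without overlap (exact permutation p = 0.10, adjusted p = 0.167). Against Map3k7 probe 2 Tab1 was higher by 0.85, without overlap and with the same permutation p. On the array scale Tab1 lay higher, and Tab2 and Map3k7 by probes 1 and 2 lay lower, each without overlap. The lack of overlap and the permutation p of these differences with Tab1 were therefore fixed in advance and add no support. Tab2 was not separated from Map3k7, with changes of −0.17 against probe 1 and 0.16 against probe 2 (exact permutation p = 0.40 and 0.50, genotypes overlapping). A shift of whole arrays, a filter or the replicate block cannot move such a difference. Over the 11 distinct alternatives that can (each array left out, quantile normalization, normexp, the authors' table, array weights and the mean over probes), the difference between the fold changes of Tab1 and Map3k7 ran from 0.40 to 0.65. That between Tab2 and Tab1, which have 1 probe each, ran from −0.96 to −0.54 over 10, so neither changed sign.

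**Figure D2:**
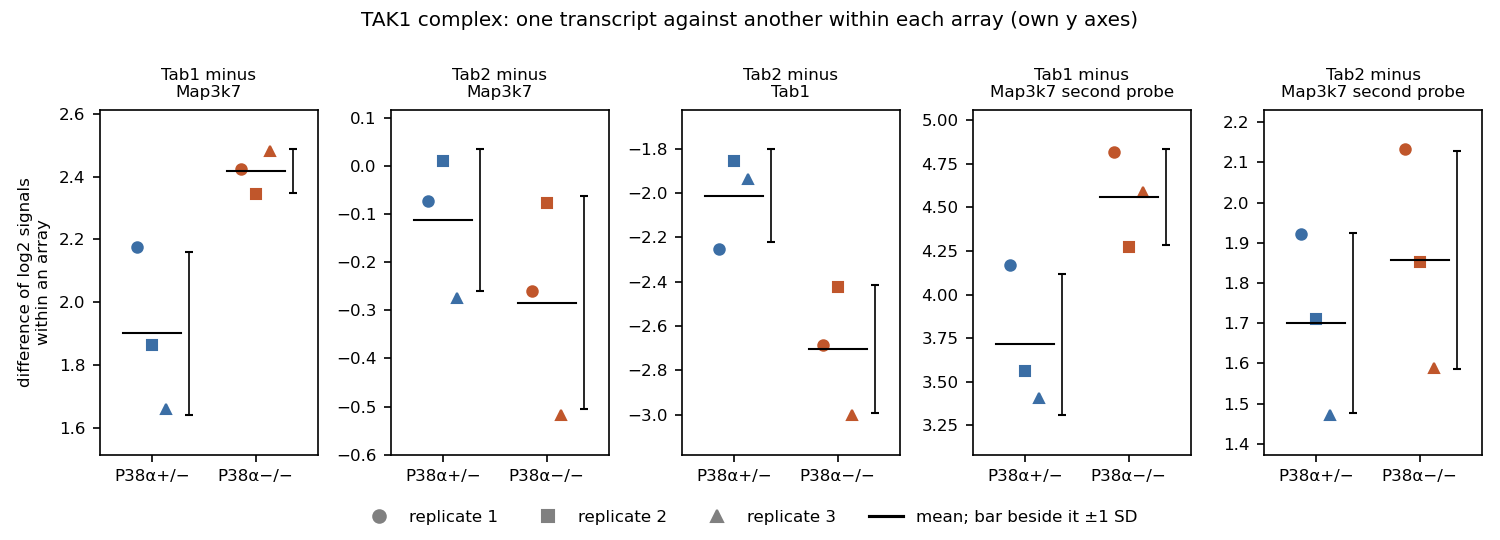
Difference between the log2 signals of 2 transcripts of the TAK1 complex within each array (y axis, log2, own axis in each panel), by labelled genotype, with arrays as points, the mean as a line and ±1 SD as a bar (n = 3). Tab1 minus Map3k7 lies higher in P38α−/− with either Map3k7 probe and Tab2 minus Tab1 lies lower, without overlap, while Tab2 minus Map3k7 overlaps. The lack of overlap in the differences with Tab1 follows from that of the single genes.

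Map3k1, encoding MEKK1, a kinase upstream of JNK that is also a ubiquitin ligase, read 1.56, 1.74 and 1.71 by probe 1 in P38α+/− and 1.24, 1.31 and 1.39 in P38α−/−. The genotypes did not overlap and the spread within each was small (SD 0.10 and 0.07, n = 3). The log2 fold change was −0.36 (95% confidence interval −0.70 to −0.01, adjusted p = 0.227 by limma), or −0.20 relative to the median probe. The overlapping probe 2 gave −0.40 (adjusted p = 0.198 by limma). The sign of Map3k1 turned under the percentile over all probes (0.13) and turned to near 0 under E1A centring (0.0080). Map3k3, encoding MEKK3, a MAP3 kinase of the P38, JNK and ERK5 cascades, was the single member with 10 spots per array. It read −5.93, −5.32 and −6.03 in P38α+/− and −7.30, −6.89 and −6.83 in P38α−/−, without overlap (two-sided exact permutation p = 0.10). Over the spots that were not outliers, 3 of 9, 10 of 10 and 7 of 9 were well above background in P38α+/−, against 0 of 8, 0 of 10 and 1 of 9 in P38α−/−. Taken against the detection floor of the P38α−/− arrays, Map3k3 was at least 1.38-fold lower there, a bound that was 1.07 under E1A centring and fell below 1 under the percentile over all probes, quantile normalization and the authors' table, so it rests on the scaling. For this bound, the P38α+/− mean was divided by that of the lowest detected signal on each P38α−/− array, or by the probe's own signal where higher. Its mean stayed lower in P38α−/− under all 4. The SD among the spots of 1 array ran from 0.21 to 0.48, against a difference of −1.25 between the genotype means.

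Map3k2, encoding MEKK2, which acts on the ERK5 and JNK cascades, read −3.54, −5.53 and −6.04 in P38α+/− and −5.65, −7.14 and −5.87 in P38α−/−. The genotypes overlapped, and the probe was well above background on 3 and 1 arrays. Map3k2 was thus tested only through P38α+/−, so its direction is no support. P38α+/− replicate 1 was the highest of the 6 by far, and without it the difference shrank from −1.18 (standard error 0.72, adjusted p = 0.392 by limma) to −0.43. A second Map3k2 probe was detected on 0 arrays.

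The arrays of the genotypes overlapped for both stress-responsive kinases. Map3k5, encoding the oxidative stress kinase ASK1, read −1.48, −2.45 and −2.25 in P38α+/− and −1.48, −2.35 and −1.87 in P38α−/− (chr10:19862193-19862252). Map3k11, encoding MLK3, a kinase that binds Rac and Cdc42, read −1.82, −2.68 and −2.36 in P38α+/− and −1.54, −2.59 and −2.26 in P38α−/− (chr19:5702495-5702554). In both genes replicate 1 was the highest array of each genotype. Within replicate numbers, Map3k11 was higher in P38α−/− in all 3 pairs (0.28, 0.09 and 0.10) and Map3k5 in 2 of 3 (−0.01, 0.10 and 0.38), and with the replicate number as a block neither passed (adjusted p = 0.453 and 0.507 by limma). The log2 fold changes were 0.16 for Map3k5 (95% confidence interval −0.65 to 0.96, adjusted p = 0.832 by limma) and 0.15 for Map3k11 (−0.67 to 0.98, adjusted p = 0.838 by limma). The upper ends of these intervals come close to the log2 fold change of Map3k4, 1.03. Both signs turned without P38α+/− replicate 2 (−0.040 for Map3k5 and −0.044 for Map3k11) and without P38α−/− replicate 1 (−0.054 for Map3k5 and −0.14 for Map3k11). Leaving out any array breaks a pair, and both signs held without any 1 of the other arrays. A second Map3k5 probe was detected on 0 of the 6 arrays.

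Among the kinases that feed NF-κB, Map3k14 had the largest fitted difference of the tested members. Map3k14 probe 1 read −4.95, −4.70 and −6.15 in P38α+/− and −7.64, −6.21 and −8.67 in P38α−/−. The genotypes did not overlap, though P38α+/− replicate 3 and P38α−/− replicate 2 lay close together. The log2 fold change was −2.24 (95% confidence interval −3.87 to −0.60, unadjusted p = 0.0151, adjusted p = 0.155 by limma). The probe was well above background on 3 P38α+/− arrays and 1 P38α−/− array. It could be tested only because P38α+/− detected it, so its direction and p values are no support. The size of the difference is not established either. Probe 2 was well above background on 1 P38α+/− array and on none of the others, and its 3 P38α−/− arrays also lay below the 3 P38α+/− arrays, with no bound on the fold that held under another scaling. The sign held under 16 alternatives, but the log2 fold change ran from −3.17 to −0.41, the smallest under normexp background correction, which adds a fixed offset of 50 to every spot. Map3k14 passed under 2 of them, the percentile over all probes (−1.75, adjusted p = 0.0180 by limma) and array weights (−3.17, adjusted p = 0.0258 by limma). These settings called 778 and 1647 genes in all, against 29. The weights gave 3.97 to P38α−/− replicate 3, alone on its slide and with the lowest Map3k14 level, and 0.47 to 2.13 to the other arrays. The other alternatives gave adjusted p values of up to 1.00. Map3k8, encoding TPL2, which activates ERK downstream of Toll-like and TNF receptors, was detected on 0 arrays.

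Markers of neutrophils and B cells had lower means in the same arrays as Map3k14. Of 10 neutrophil markers, all 10 had a lower mean in P38α−/− and 9 did not overlap. Of all tested genes, 19.9% lay lower without overlap. The neutrophil list mean was 1.61 to 3.14 in P38α+/− and 0.61 to 1.12 in P38α−/−. Of 7 B cell markers, the 3 that could be tested (Cd79b, Ebf1 and Ms4a1) had list means of −4.99 to −2.94 and −7.44 to −6.01, and Ebf1 and Ms4a1 were detected on 0 of the 3 P38α−/− arrays. The 8 tested monocyte or macrophage markers of 9 ran from −4.48 to −3.04 and from −5.81 to −3.73, and the 4 tested T or NK cell markers of 7 from −2.36 to −1.47 and from −2.69 to −2.61. The 3 tested megakaryocyte or platelet markers of 6 ran from −2.15 to −1.88 and from −2.58 to −2.03. Of them, 2, Gp9 (0.33) and Itga2b (0.22), had a higher mean in P38α−/− with overlap. Pf4 had a lower one without overlap (log2 fold change −1.42, adjusted p = 0.196 by limma). The 10 neutrophil markers, all detected on every array, had a lower mean in P38α−/− under the 4 other scalings too, as did all 7 B cell markers, tested or not. Ebf1 and Ms4a1 could be tested only because P38α+/− detected them, so their direction is no support. The same holds for Adgre1, C1qa and C1qc among the monocyte or macrophage markers and for Gzma among the T or NK cell markers. All of these genes enter the list means above. Of the 8 monocyte or macrophage markers 1 to 2 had a higher mean under the other scalings, and of the 4 T or NK cell markers up to 2. No gene of these 5 lists passed limma's adjustment. NIK and its partners are expressed in B cells and myeloid cells, and the part of those cells in the difference of Map3k14 was not tested. In a sorted bulk sample, fewer cells of a type and less RNA per cell cannot be told apart. All 7 early erythroid markers could be tested, with list means of 2.02 to 2.22 in P38α+/− and 1.86 to 2.10 in P38α−/−. Among them Kit, the stem cell factor receptor, had a log2 fold change of −1.62 without overlap (adjusted p = 0.160 by limma) and Epor, the erythropoietin receptor, one of 0.21 without overlap (adjusted p = 0.483 by limma). Kit was detected on 3 P38α+/− and 2 P38α−/− arrays, so it was tested only through P38α+/−. The 7 late erythroid markers had list means of 4.90 to 5.21 and 4.91 to 5.23, all with overlap.

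**Figure D3:**
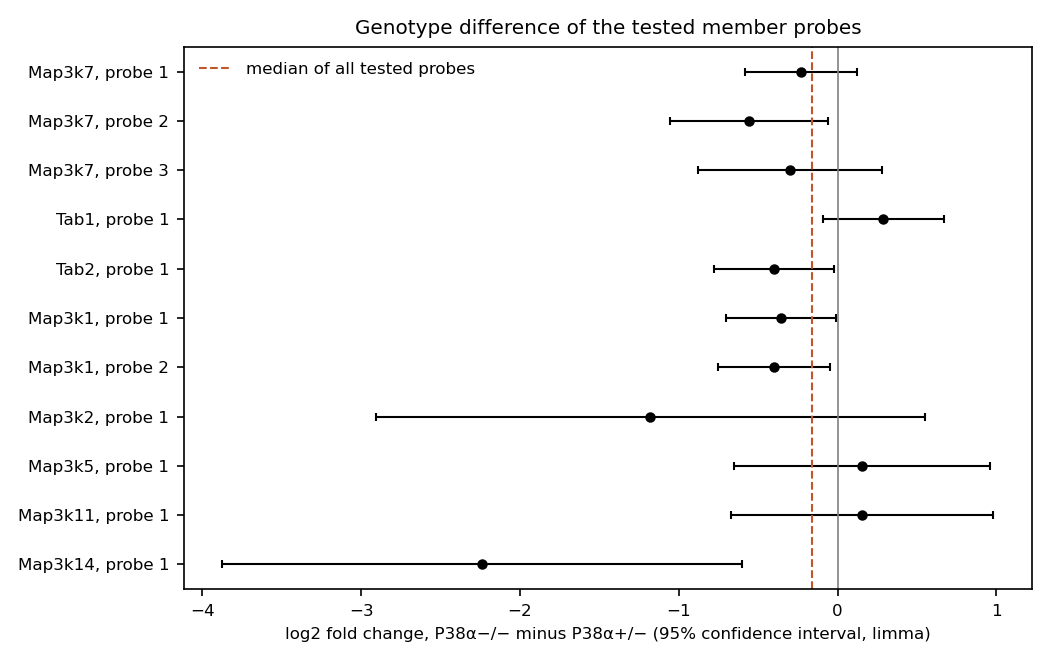
Log2 fold change of the 11 tested member probes (x axis, P38α−/− minus P38α+/−, points with limma's 95% confidence interval) with probes numbered from the brightest within a gene. The dashed line is the median of all tested probes (−0.16); the widest intervals are those of Map3k2 and Map3k14, and Tab1 is the member farthest above the dashed line.

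Map3k4, a MAP3 kinase outside the members, was higher in all 3 P38α−/− arrays by a log2 fold change of 1.03 (adjusted p = 0.0867 by limma), and every member stood below it. Within arrays, all 8 tested members had a lower mean relative to Map3k4 in P38α−/−, with changes from −0.74 (Tab1) to −3.26 (Map3k14) on the log2 scale. For 6 of the 8 the arrays did not overlap, and they did overlap for Map3k5 and Map3k11, with a change of −0.87 each. Since Map3k4 was picked as the partner with its higher level known, these differences are given as a description.

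The rest of the tier and its neighbours were followed through 3 gene lists. Of 18 other MAP3 kinases with Tab3, 10 could be tested, none was called and 3 reached an unadjusted p of 0.05, with 1 higher (Map3k4) and 2 lower (Tab3 and Map3k20) without overlap. Of all tested genes, 0.207% were called, 20.0% reached that unadjusted p, and 7.42% lay higher and 19.9% lower without overlap. The log2 fold change of Map3k20, the ribosome stress kinase ZAK, was −0.81 (adjusted p = 0.110 by limma). The median of the 10 was −0.13, or 0.03 relative to the median probe. Of 27 activators and partners of MAP3 kinases, 25 could be tested and none was called. An unadjusted p of 0.05 was reached by 6 of them, against 20.0% of all tested genes, and their median was −0.09. Traf5, an adaptor of TNF receptors, had the smallest adjusted p of that list, with −2.22, −2.28 and −2.02 in P38α+/− and −0.80, −0.56 and −0.24 in P38α−/− (log2 fold change 1.64, adjusted p = 0.0574 by limma). Birc3, a ubiquitin ligase that marks NIK for degradation, was detected on 0 of 3 P38α−/− arrays and was at least 2.40-fold lower there (adjusted p = 0.177 by limma, 1.66 to 1.94-fold under the other scalings). Birc3 was tested only because P38α+/− detected it, so its direction is no support. The NIK-binding adaptor Traf3 had a log2 fold change of −0.79 with overlap, and Nfkb1, whose p105 product binds TPL2, one of −1.34 with overlap. Nfkb1 was detected on 3 P38α+/− and 2 P38α−/− arrays, so it too was tested only through P38α+/− and its direction is no support. The other genes listed here from the ligase complex that degrades NIK, Traf2 (0.07) and Birc2 (−0.09), did not share the lower means of Birc3 and Traf3 beyond the spread of the arrays. None of the 5 genes passed.

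Of 20 kinases downstream of MAP3 kinases, 16 could be tested, none was called and 7 reached an unadjusted p of 0.05. Over all tested genes, 0.207% were called and 20.0% reached that unadjusted p. Of the MAP2 kinases that act on P38, Map2k3 and Map2k6 read higher without overlap, while Map2k4, which acts on JNK and also on P38, had a log2 fold change of −0.31 with overlap (adjusted p = 0.380 by limma). Map2k3 read −0.24, −0.50 and 0.25 in P38α+/− and 0.58, 0.60 and 0.79 in P38α−/− (log2 fold change 0.82, adjusted p = 0.141 by limma). Map2k6 read −4.96, −4.71 and −7.37 in P38α+/− and −2.23, −2.39 and −2.59 in P38α−/−, a log2 fold change of 3.28 (adjusted p = 0.103 by limma) with 2 of 3 P38α+/− arrays well above background. Map2k6 was tested only because all 3 P38α−/− arrays detected it, so its direction is no support. Map2k2 and Mapk14 were the other 2 genes of this list that lay higher without overlap, and Mapk7 and Nlk lay lower. Over all tested genes, 7.42% lay higher and 19.9% lower without overlap. Nlk was detected on 3 P38α+/− and 2 P38α−/− arrays and so tested only through P38α+/−, which makes its direction no support. Map3k4, Traf5, Map2k3 and Map2k6 kept their direction under the 4 other scalings. The whole lists did not: the median of the downstream kinases was −0.17 here and ran up to 0.32 under the percentile over all probes, which moved the median of all tested probes to 0.32.

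**Figure D4:**
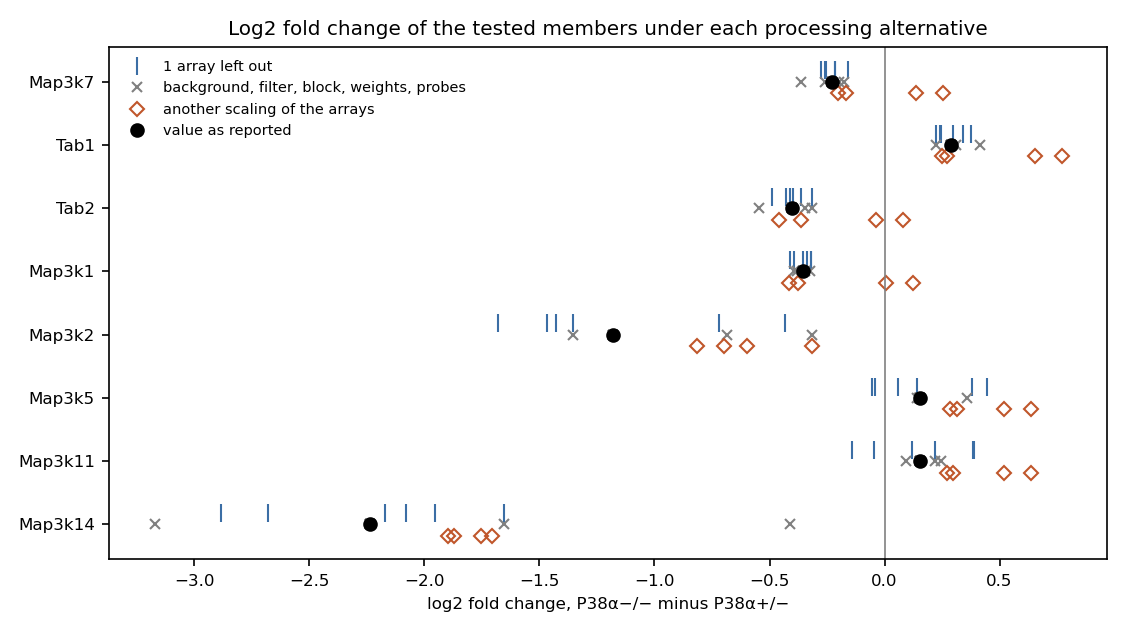
Log2 fold change of the 8 tested members (x axis, P38α−/− minus P38α+/−) as reported and under each alternative in which the gene could be fitted, with the kind of alternative as the symbol. Map3k14 and Map3k2 stay below 0 and Tab1 above 0 throughout, while Map3k7, Tab2 and Map3k1 cross 0 under other scalings of the arrays and Map3k5 and Map3k11 when 1 array is left out.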

How the data were processed

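RNA of 6 mice was measured on 1 array each, and every array took its genotype and replicate number from its label. The deposited scanner files hold the intensity of each spot, background-subtracted by the authors' scanner software (Agilent Feature Extraction 10.7.3.1, mm9 probe positions) and not normalized between arrays. A second deposited table holds the authors' normalized intensities on a linear scale (column medians of 8.48 to 8.50), quantile normalized by the look of the values; its steps are not given in the sources used here.

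Control spots and outlier spots were left out (6 of the member readings; 0 were saturated), spots of a probe were averaged, log2 was taken and the 75th percentile subtracted. Gene names of the members are those of the files; for the other lists 27509 probes were named through their accession, 3549 by symbol and 404 by synonym, and 24219 kept the file's name. Genotypes were compared with limma 3.58.1 (R 4.3.3, two-sided, Benjamini-Hochberg over 18547 probes), and single values by exact permutation. A gene stands by its brightest tested probe, or, failing that, its brightest; all 10 members are named, and genes of the other lists by direction, overlap or adjusted p. The members and lists were chosen with earlier results of these data known. Sequences are those of the array files. The code was tested on simulated data. Each array is a separate mouse, and 3 arrays a genotype limit the precision.

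Arrays of the same replicate number deviated together from their genotype means (r = 0.537, 0.310 and 0.423, against at most 0.184 for different numbers, over the 15150 probes), and the series describes pairs of mice. The main fits and the permutations are nevertheless unpaired, like the test in the paper's methods, and do not use these pairs. The replicate number entered as a block in 1 alternative only. There the adjusted p of Map3k14 fell from 0.155 to 0.0640 by limma. The alternatives are given in the closing section.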

Additional observations from a re-analysis of the deposited data

How the results depend on the processing

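The count of called members was 0 in all settings but 2, the percentile over all probes and limma's array weights, each with 1 (Map3k14). The count of members without overlap, 5 of 8, was 2 under the percentile over all probes, 3 under quantile normalization, 3 in the authors' normalized table and 0 under E1A centring, and 5 to 6 with 1 array left out. The share of all tested genes without overlap was computed for the main setting only. With fewer arrays the genotypes also separate more easily, so these counts do not set the members against the rest. The median of the members relative to the median probe, −0.13, was −0.34 under quantile normalization, −0.17 under normexp, −0.30 in the authors' table, −0.018 with no filter on dim probes (10 genes), 0.058 over the 6 genes well above background on all arrays and −0.21 with the mean of each gene's probes. It ran from −0.24 to −0.055 with 1 array left out. The percentile over all probes turned the sign of Map3k1 (0.13), Map3k7 (0.25) and Tab2 (0.081), and E1A centring that of Map3k1 (0.0080) and Map3k7 (0.14). Leaving out P38α+/− replicate 2 or P38α−/− replicate 1 turned Map3k5 (−0.040 and −0.054, in a range up to 0.45 with 1 array left out) and Map3k11 (−0.044 and −0.14, up to 0.39). The percentile over all probes and E1A centring subtract another value from each array. Each of them therefore moved the log2 fold changes of all 8 tested members by 1 common amount. Why these values differ between the genotypes was not tested. Nor was the cause of the other changes, apart from the filters, which change the genes compared. With the replicate number as a block, 0 members were called, 5 did not overlap and the median was −0.13, so no call changed; the adjusted p of Map3k14 was 0.0640 by limma. The block raised the calls over all genes from 29 to 67. They were 778 under the percentile over all probes, 12 under quantile normalization, 4 under E1A centring, 17 under normexp and 11 in the authors' table. With no filter there were 0, under the strict filter 62 and with array weights 1647. Leaving 1 array out gave 0 to 100, and the methods' unpaired equal-variance test gave 2. A slide block amounts to leaving out P38α−/− replicate 3. In the authors' table, P38α−/− replicate 2 follows its own scanner file less closely (Spearman 0.898) than the other 5 arrays do (1.00 each). Detection limits Map3k2, Map3k3, Map3k8 and Map3k14, whose levels lie near the background.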
